A study of Scophthalmus maximus with 8 samples.

Results

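The comparison described here is between the phylotypic stage of turbot (*Scophthalmus maximus*, a flatfish) and its pre-metamorphic stage. The phylotypic samples were whole animals taken at 3 days post fertilization (3dpf), and the pre-metamorphic samples were larvae taken at 15 days post hatching (15dph). Accessible chromatin was profiled by ATAC-seq, which uses the Tn5 transposase to cut and tag DNA where nucleosomes leave it exposed. The labels give no treatment, strain or genotype for any sample. The 15dph larvae were trimmed behind the cloaca and their posterior end was discarded, so stage and sampled material change together and cannot be told apart. The 3dpf embryos were also freed of the chorion with pronase, and the tissues of the stages were dissociated with collagenase for different times. About 75000 cells went into each sample, and each stage had 2 biological replicates that share 1 list of reproducible peaks, joined by the Irreproducible Discovery Rate (IDR), an estimate of how often peaks that strong would fail in a repeat. The 3dpf list held 94714 peaks and the 15dph list 57611, together 152325 of the 246426 peaks in the 4 lists of the series. Members were all peaks of both lists, on the assembly ASM1334776v1. With 1 list per stage there is no error between replicates and no test between the stages. The intervals given are 95% intervals that cover counting error only.

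As background, the phylotypic stage is the period when embryos of different vertebrates look most alike and the body axis, neural tube and somites are being laid out. The larva at 15dph is a symmetrical, swimming animal with differentiated organs, before the eye migrates. Open chromatin marks promoters, enhancers and insulators. Promoters of widely used genes tend to be open in many cell types, whereas enhancers are often open in a few cell types or for a limited time, and developmental genes are often surrounded by several enhancers. A whole animal mixes cell types, so fewer cells with an open site or less open DNA per cell may leave no peak. A site may also miss the peak call or the limit of agreement between replicates. These cannot be told apart here. No gene, base composition or motif was assigned to a peak, since the gene table at hand is of another build.

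About as many embryonic peaks were lost as kept, while most larval peaks were already present in the embryo. A 3dpf peak was called kept when at least 1 bp of a 15dph peak overlapped it and lost otherwise, and a 15dph peak with no 3dpf peak was called gained. Of the 94714 peaks at 3dpf, 48765 were lost, which is 51.5% (95% Wilson interval 51.2 to 51.8), and 45949 were kept. Of the 57611 peaks at 15dph, 11404 were gained, which is 19.8% (19.5 to 20.1), and 46207 were kept. The links were simple. Of the kept 3dpf peaks, 97.7% overlapped a single 15dph peak, and 43354 pairs were one-to-one, each peak overlapping exactly 1 peak of the other list. Only 1066 peaks at 3dpf overlapped 2 or 3 peaks at 15dph, and only 809 peaks at 15dph overlapped 2 or 3 at 3dpf. These were broad peaks, with a median width of 621.5 bp at 3dpf and 620.0 bp at 15dph. Few peaks lay at the limit of the linking rule. The longest overlap was at most 50 bp for 63 kept 3dpf peaks, and 434 lost ones ended within 50 bp of a 15dph peak. Both shares depend on the unequal list lengths. With the 57611 strongest 3dpf peaks against the 15dph list, 36.7% were lost and 35.6% gained.

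The strongest embryonic peaks were mostly kept, and the share lost was higher at every step down the list. Peaks were ranked within their list by −log10 p, the peak caller's measure of strength, and divided into deciles. In the strongest decile 678 of 9472 peaks at 3dpf were lost, or 7.16% (6.66 to 7.69). The share was 52.1% (51.05 to 53.1) in the fifth decile and 81.6% (80.8 to 82.3) in the weakest. Gained peaks were more restricted to low ranks in the full lists. The 3dpf list is the longer one, which leaves more peaks to match a 15dph peak. Shares by decile were not compared with lists of the same length. In the strongest decile of the 15dph list 3 of 5762 peaks were gained, or 0.0521% (0.0177 to 0.153), and in the weakest 2945 of 5761, or 51.1% (49.8 to 52.4). The median fold enrichment over local background was 4.38 for lost and 5.92 for kept peaks in the 3dpf list, and 3.54 for gained and 4.67 for kept peaks in the 15dph list. Fold enrichment depends on the depth and background of the libraries of a stage, so it was compared within a list only.

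**Figure D1:**
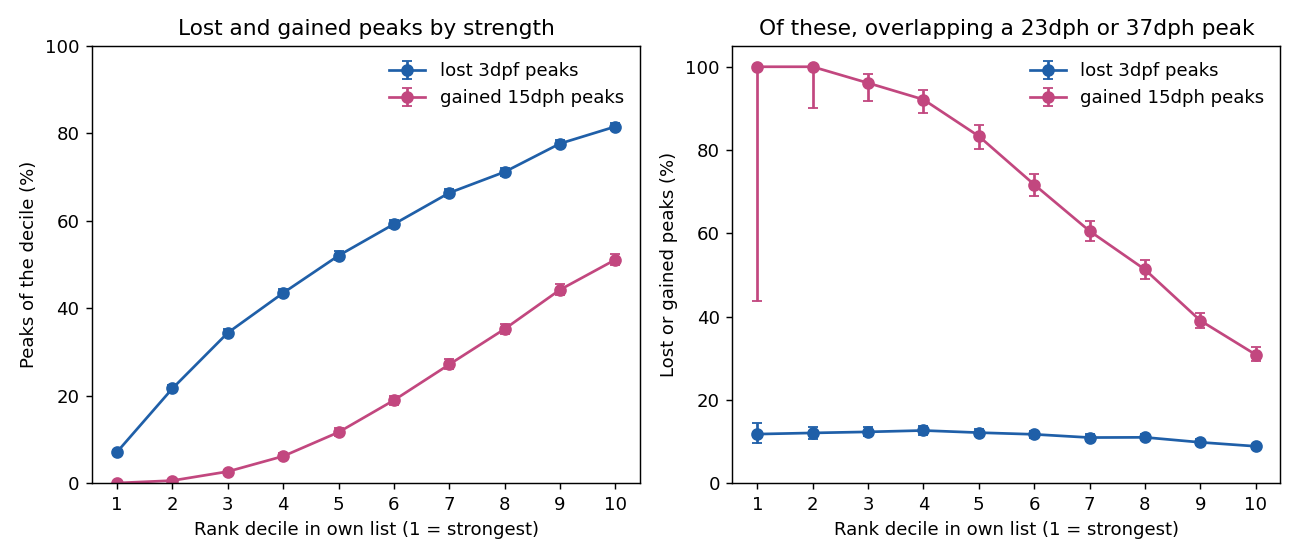
Left, the share of 3dpf peaks lost and of 15dph peaks gained (%) in each decile of rank by −log10 p within the own list. Right, the share of those lost or gained peaks (%) that overlapped a 23dph or 37dph peak. Bars are 95% Wilson intervals. Loss rises from 7.16% to 81.6% and gain from 0.0521% to 51.1%, while later overlap of lost peaks stays between 8.88% and 12.7% and that of gained peaks falls from 100% (3 of 3 peaks) to 30.9%.

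The 5 strongest lost peaks were all among the 1000 strongest of the 3dpf list, where 9 peaks in all were lost. The first lay on chromosome 2 from 1352426 to 1352882, and ranked 149, its signal standing 12.1-fold over the local background. A 15dph summit lay 587 bp from its summit without an overlap of the peaks. The others lay on chromosome 20 from 2790156 to 2790740 (585 bp wide, rank 323), chromosome 22 from 1223357 to 1223669 (313 bp, rank 455), chromosome 16 from 1561033 to 1561651 (619 bp, rank 632) and chromosome 17 from 3079290 to 3079565 (276 bp, rank 771). The peaks on chromosomes 20 and 16 stood far from larval accessibility, with the nearest 15dph summit 13659 and 12934 bp away. Of the 5 peaks, only the one on chromosome 20 overlapped a peak of a later list, at 23dph. Among all lost peaks of the strongest decile, 11.8% overlapped a 23dph or 37dph peak, and 1 of 5 cannot be told from that share.

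The 5 strongest gained peaks ranked lower in their list and were still seen later. The first lay on chromosome 1 from 17031753 to 17032158 and ranked 3471 of 57611, at 8.06-fold over the local background. The next lay on chromosome 4 from 13118566 to 13118940 (rank 5014), chromosome 16 from 15001780 to 15002132 (rank 5594), chromosome 6 from 2461670 to 2462103 (rank 5808) and chromosome 6 from 21273268 to 21273757 (rank 6158). Each of the 5 overlapped peaks of both the 23dph and the 37dph list. All 3 gained peaks of the strongest decile and all 35 of the second overlapped a peak of either list. Later overlap was thus not particular to these 5. The fourth of the 5 lay 396 bp from a 3dpf summit, and the second 9477 bp from the nearest one.

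The lists of the later stages were not used for the links, and they separated lost from gained peaks further. At 23dph turbot are at the climax of metamorphosis and at 37dph they are past it, and the lists of these stages hold 47853 and 46248 peaks from bodies trimmed as at 15dph. Of the lost 3dpf peaks, 7.22% (6.99 to 7.45) overlapped a peak at 23dph and 5.71% (5.51 to 5.92) at 37dph, and 10.98% (10.7 to 11.3) overlapped a peak of either. Of the kept 3dpf peaks, 76.9% (76.5 to 77.3) and 68.9% (68.4 to 69.3) did. Gained peaks lay between them. Of these, 36.1% (35.2 to 37.0) overlapped a peak at 23dph, 34.7% (33.8 to 35.5) one at 37dph, and 50.5% (49.5 to 51.4) a peak of either. These shares were higher when the 3dpf and 15dph lists were limited to a global IDR of at most 0.01. The 23dph and 37dph lists were not limited. Peaks whose partner fell outside the limit then also counted as lost or gained, so the rise does not show more lasting accessibility. The lost peaks then overlapped a 23dph peak in 15.4% and a 37dph peak in 10.3%, and the gained peaks in 66.7% and 62.8%.

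Lost peaks of all strengths were seldom seen at a later stage, whereas strong gained peaks were seen there more often than weak ones. In the strongest decile of the 3dpf list, 80 of 678 lost peaks overlapped a 23dph or 37dph peak, or 11.8% (9.58 to 14.4), against 8.88% (8.27 to 9.54) in the weakest. Of the gained peaks in the top 50% of the 15dph list, 1074 of 1220 overlapped a later peak, or 88.0% (86.1 to 89.7). In the bottom 50% it was 46.0% (44.998 to 46.9) of 10184. For kept 15dph peaks the corresponding shares were 97.3% and 62.0%. The 15dph, 23dph and 37dph samples share the trimmed body that 3dpf lacks, and its part in these shares was not tested.

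Lost peaks looked slightly narrower than kept ones as a whole, yet were wider than kept peaks of the same strength. The median width was 270 bp (269 to 271) for lost and 280 bp (278 to 281) for kept 3dpf peaks, a ratio of 0.964. Within each of the 10 deciles of rank the order was the opposite. In the strongest decile the medians were 425 bp (413 to 442) for lost and 392 bp (388 to 397) for kept peaks, in the fourth 332 bp (327 to 336) and 257 bp (253 to 261), and in the weakest 208 bp (206 to 210) and 177 bp (173 to 180). The ratio of lost to kept ranged from 1.08 to 1.29 over the deciles, and the intervals of the medians did not overlap in any of the 10. Deciles of fold enrichment instead of −log10 p gave ratios of 1.05 to 1.21, above 1 in each of the 10. A wide peak can be overlapped more easily. Linking peaks by summits within 100 bp turned the ratio for the whole list to 1.02, but this limit is not neutral to width. With one-to-one pairs in 5 groups by width at 3dpf, summits were over 100 bp apart in 17.8% of the broadest group and 0.288% of the narrowest. The limit thus breaks links of broad peaks more often, and its part in the ratio of 1.02 was not tested. The ratio for the whole list also turned to 1.07 with lists of the same length and to 1.09 at a global IDR of at most 0.01.

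**Figure D2:**
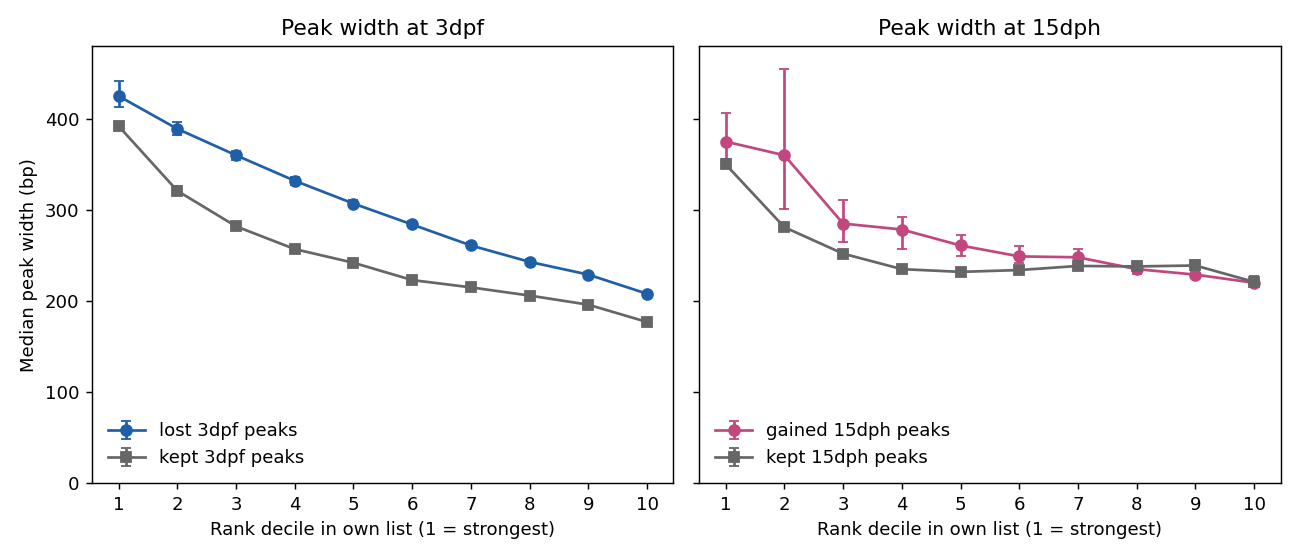
Median peak width (bp) in each decile of rank by −log10 p, for lost and kept 3dpf peaks (left) and for gained and kept 15dph peaks (right). Bars are 95% order-statistic intervals of the median. Lost peaks are wider than kept ones in each of the 10 deciles at 3dpf, and gained peaks in 7 of 10 at 15dph, which became 2 of 10 with lists of the same length.

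Gained peaks showed this less evenly. Their median width was 237 bp (235 to 240) against 260 bp (259 to 261) for kept 15dph peaks, a ratio of 0.912 that turned to 1.02 when peaks were linked by summits. The summit limit breaks links of broad peaks more often here too. Summits were over 100 bp apart in 17.1% of the broadest of 5 groups of pairs by width at 15dph and 1.00% of the narrowest. Gained peaks were wider than kept ones in 7 of 10 deciles, by up to 1.28 times in the second, where 35 peaks were gained. This number depended on how peaks were linked, and was 2 of 10 with lists of the same length and 10 of 10 by summits. The intervals stood apart in 5 deciles, and in the 3 weakest deciles the ratio was 0.958 to 0.995. The narrowest 10% of the 15dph list, from 100 to 167 bp, held the highest share of gained peaks by width, 37.2% (35.9 to 38.4). The broadest 10%, from 499 bp, held 9.84% (9.10 to 10.6). The broadest 10% were also the most often kept at 3dpf, where 34.9% (34.0 to 35.9) of peaks of at least 521 bp were lost. In the other 9 groups of 10% loss ranged from 48.1% to 57.2%, the last in the narrowest. The broadest 10% of each list were also stronger than the narrowest 10%. The median −log10 p was 36.4 in the broadest and 12.7 in the narrowest 10% at 3dpf, and 26.3 and 11.8 at 15dph. Between these ends it did not rise evenly at 15dph, with 21.1 in the fifth group by width and 18.2 in the eighth. The widest peak of the 15dph list was a gained one of 3515 bp on the mitochondrial genome, from 41 to 3555, with a fold enrichment of 1.35. The 3dpf list named no mitochondrial peak.

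Lost and gained peaks both stood further apart from other peaks of their list than kept ones. The median distance from a summit to the nearest other summit of the list was 1619 bp (1599 to 1640) for lost and 1183 bp (1164 to 1204) for kept 3dpf peaks. It was 2911 bp (2815 to 3002) for gained and 1848 bp (1808 to 1891) for kept 15dph peaks. This held in each decile of rank, with ratios of 1.13 to 1.93 at 3dpf and 1.22 to 3.37 at 15dph. The ratio of 3.37 came from the strongest decile, where only 3 peaks were gained. The contrast was clearest among strong peaks. In the strongest decile of the 3dpf list, 27.6% of lost and 51.0% of kept peaks had another summit within 1000 bp. Loss was lowest, at 39.8% (39.0 to 40.6), for 3dpf peaks whose nearest summit was 250 to 500 bp away, and highest, at 69.5% (65.5 to 73.2), for the 551 peaks more than 20000 bp from any other. Those isolated peaks were also weaker, with a median −log10 p of 17.6 against 23.9. The share lost did not rise evenly with distance. It was 49.4% (46.9 to 51.9) up to 250 bp, and 53.9% to 57.3% in the groups between 1000 and 20000 bp. Gain at 15dph was likewise 25.4% up to 250 bp and 12.2% from 250 to 500 bp.

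Few lost peaks had a larval summit within 500 bp. Lost and gained peaks overlap no peak of the other list by definition, which itself excludes most of the shortest distances. The nearest 15dph summit lay a median of 3372 bp (3323 to 3418) from a lost summit. It lay within 500 bp for 7.15% (6.92 to 7.38) of lost peaks and more than 10000 bp away for 17.1%. Gained summits lay a median of 1954 bp (1904 to 2005) from the nearest 3dpf summit, and 12.3% (11.7 to 12.9) within 500 bp. The 3dpf list is the denser one, which brings its summits nearer to any point. Seen from gained peaks, lost neighbours were about as frequent as in the whole 3dpf list. Seen from lost peaks, gained neighbours were slightly more frequent than in the whole 15dph list. The nearest 3dpf peak of a gained peak had been lost in 51.3% (50.3 to 52.2) of cases, close to the 51.5% of all 3dpf peaks. The nearest 15dph peak of a lost peak was a gained one in 22.8% (22.4 to 23.2), against 19.8% of all 15dph peaks.

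Lost peaks lay next to lost peaks. The nearest 3dpf peak was lost for 59.4% (59.0 to 59.8) of lost peaks and for 41.4% (40.9 to 41.8) of kept peaks, a difference of 18.0 percentage points. The difference was found in each decile of rank and was larger among strong peaks, at 28.6 points in the strongest decile and 14.9 in the weakest. With the 2 nearest peaks on either side, 35.5% (34.5 to 36.5) of peaks were lost where none of the 4 was lost and 70.9% (70.1 to 71.8) where all 4 were. For gained peaks the difference in points was smaller, but they were 19.8% of their list, against 51.5% for lost peaks. The 2 differences are therefore not on the same scale. The nearest 15dph peak was gained for 25.8% (24.99 to 26.6) of gained and 16.9% (16.6 to 17.3) of kept peaks, a difference of 8.86 points. The median −log10 p at 3dpf also fell, from 23.9 with no lost flanking peak to 19.5 with 4, and its part in the trend beyond the comparison within deciles was not tested.

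**Figure D3:**
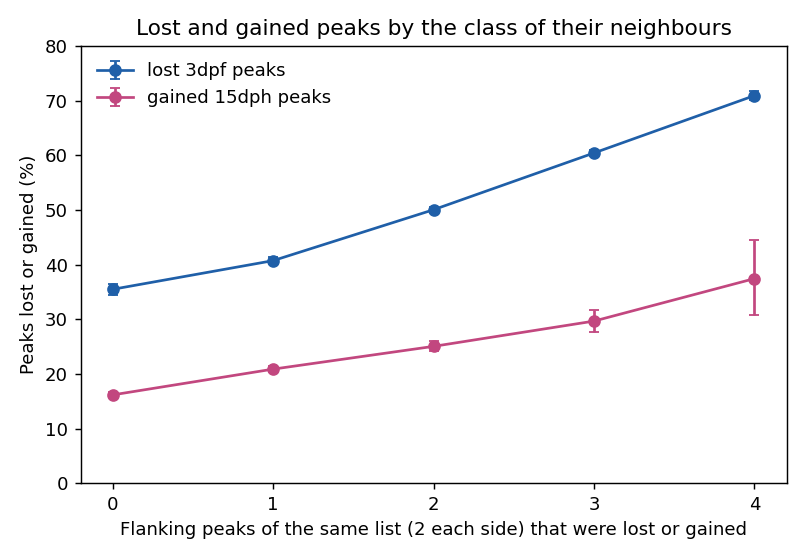
Share of peaks lost at 3dpf or gained at 15dph (%) against the number of the 4 flanking peaks of the same list, 2 on each side, that were themselves lost or gained. Bars are 95% Wilson intervals. Loss rises from 35.5% to 70.9% and gain from 16.2% to 37.4%, the last from 187 peaks.

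Long stretches of the genome lost every embryonic peak. Consecutive lost peaks formed 20135 runs, with a mean of 2.42 peaks, and 351 runs of at least 10 peaks held 9.15% of all lost peaks. Kept 3dpf peaks formed 20128 runs, with a mean of 2.28 peaks, and 186 of these runs held at least 10. Lost peaks were 51.5% of the list and kept peaks 48.5%, and the larger share itself gives more long runs. Its part in these counts was not tested. The longest run was 32 lost peaks on chromosome 6 from 1569488 to 1844828, over 275 kb. The next were 29 peaks on chromosome 15 from 7468557 to 7601218, over 133 kb, and 27 peaks on chromosome 13 from 307950 to 476104, over 168 kb. Their median peak widths were 301.5, 322 and 308 bp, above the 270 bp of all lost peaks. These were mostly not strong peaks, with median ranks of 64689, 50079 and 69143 of 94714. The run on chromosome 15 contained no 15dph peak at all, while those on chromosomes 6 and 13 contained 5 15dph peaks each. All of these were gained, since a 15dph peak linked to a 3dpf peak there would have broken the run. Of the lost peaks in these runs, 2 of 32, 2 of 29 and 1 of 27 overlapped a peak at 23dph. The share of all lost peaks was 7.22%, and counts this small do not set the runs apart from it.

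Runs of gained peaks were short. Only 19.8% of 15dph peaks were gained, a share at which most runs would be single peaks even in random order. There were 8565 runs of gained peaks, of which 75.9% were single peaks and 49 held at least 5. The longest was 10 gained peaks on chromosome 5 from 13471038 to 13529869, over 58.8 kb, with a median width of 307.5 bp. The next held 8 and 7 peaks, both on chromosome 14, from 4544561 to 4603849 and from 6558141 to 6622362. The chromosome 5 stretch also contained 5 3dpf peaks and the others 7 each, and all of these were lost, since a kept 3dpf peak would have broken the run. Of the 10 gained peaks on chromosome 5, 2 overlapped a 23dph peak, as did 4 of 8 and 2 of 7 in the stretches on chromosome 14. The share of all gained peaks was 36.1%, and counts this small do not set the stretches apart from it.

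On the scale of 100 kb windows, loss varied widely from place to place. Among 4532 windows with at least 10 peaks at 3dpf, the median share lost was 50%, the middle 50% of windows lay between 38.5% and 62.5%, and the extremes reached 0% and 100%. In 83 windows at least 90% of the peaks were lost and in 23 at most 10%. For gain, the median over 3120 windows was 18.2%, the highest value was 76.9% and no window reached 90%. Windows hold few peaks, and their counting error was not removed from this spread.

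Chromosomes differed modestly in what they lost. The share ranged over the 22 numbered chromosomes from 47.1% (45.6 to 48.7) on chromosome 19 to 55.6% (53.8 to 57.4) on chromosome 21, with chromosome 13 at the same level as the highest, 55.6% (54.1 to 57.1). Chromosomes 4 and 22 were also low, at 47.3% (46.0 to 48.7) and 47.9% (46.0 to 49.8), and the intervals of these 3 low chromosomes overlap each other. The make-up of strengths alone gave a narrower range. If each rank decile had been lost at the rate of the whole list, the chromosomes would have ranged from 49.6% to 53.6%. Chromosome 19 would have lost 51.1% and chromosome 22 51.7%, and these were the 2 chromosomes that lay more than 3 percentage points from that value. Chromosomes 13 and 5 fell just short of that limit on the high side, at 55.6% against 52.6% and 54.4% against 51.5%. Gain ranged from 17.2% (15.8 to 18.7) on chromosome 19 to 22.2% (20.6 to 23.9) on chromosome 14. Chromosome 19 thus had the lowest loss and the lowest gain, and the highest density of 15dph peaks, 119 per Mb. Across the 22 chromosomes, the shares lost and gained were correlated (Pearson r = 0.708, Spearman rho = 0.724). The points share the 2 lists and their depth, and a chromosome with more linked peaks is low in both by construction. Chromosome length was unrelated to loss (r = −0.00574, rho = −0.0220). Sequences other than numbered chromosomes held 20 3dpf peaks, of which 13 were lost, and 13 15dph peaks, of which 6 were gained.

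**Figure D4:**
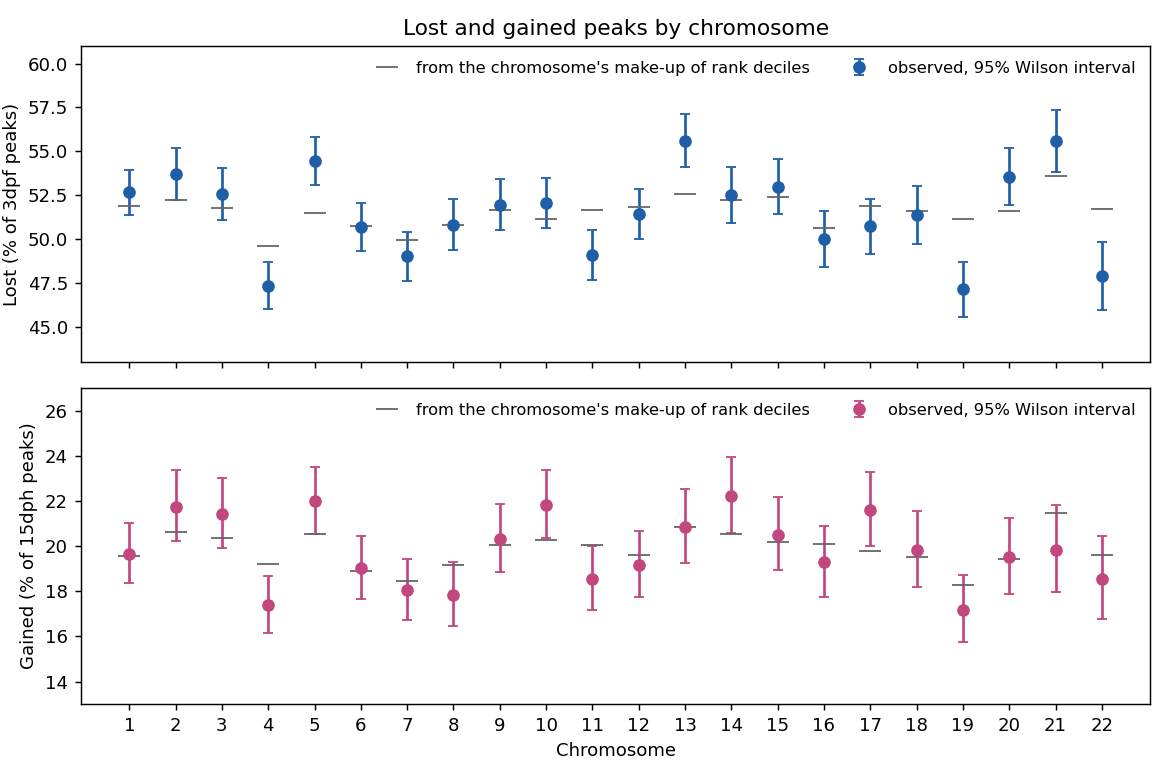
Share of 3dpf peaks lost (top) and of 15dph peaks gained (bottom) in % on each of the 22 chromosomes, with 95% Wilson intervals. Grey dashes give the share each chromosome would have if every rank decile were lost or gained at the rate of the whole list. Both axes start above 0. Chromosome 19 is lowest in both panels, at 47.1% and 17.2%.

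Both shares also differed with position along the chromosome. In the outermost 1 Mb of the chromosomes, taking the furthest peak as the end, 48.7% (47.6 to 49.9) of 3dpf peaks were lost and 15.0% (14.01 to 16.1) of 15dph peaks were gained. Between 2 and 5 Mb from an end the shares were 55.0% (54.4 to 55.7) and 19.9% (19.2 to 20.6). Further inside they were 50.3% (49.9 to 50.7) and 20.5% (20.1 to 20.9).

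Kept peaks were slightly narrower in the larva than in the embryo. Over the 43354 one-to-one pairs the median width was 275 bp at 3dpf (274 to 277) and 258 bp at 15dph (256 to 259), and the median ratio of 15dph to 3dpf was 0.953 (0.952 to 0.955). Of the pairs, 62.7% (62.2 to 63.1) were narrower at 15dph and 36.4% (35.9 to 36.8) wider. Larger changes also leaned to narrowing, with 8.67% of pairs narrower past 1.5-fold and 3.62% wider. The median start lay 5 bp further in and the median end 5 bp further in. Starts and ends follow the direction of the assembly, so these medians cannot show whether single peaks narrowed on a single side or on both. In 40.3% of pairs the 15dph peak lay wholly inside the 3dpf peak, and in 18.6% the reverse was found. More pairs were narrower than wider on each of the 22 chromosomes, from 59.0% on chromosome 17 to 65.3% on chromosome 20.

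The ratio was lower for broad peaks, though part of this follows from how pairs are grouped. Grouped by width at 3dpf, the median ratio fell from 1.02 (1.01 to 1.02) in the narrowest 20% of pairs to 0.878 (0.871 to 0.885) in the broadest 20%. Grouped by width at 15dph it rose instead, from 0.913 to 0.996, since a peak chosen for being broad in 1 list tends to be less so in the other. Grouped by the mean of both widths, which favours neither list, it was 0.970 (0.965 to 0.972) in the narrowest 20% and 0.944 (0.940 to 0.947) in the broadest. The change in width went with the change in rank. Pairs that moved down by at least 25 percentile points of their list numbered 8609 and had a median ratio of 0.841 (0.836 to 0.846). The 3074 that moved up by as much had a median ratio of 1.12 (1.11 to 1.13). Linked peaks were scarcer in the weakest decile at 3dpf, where 81.6% were lost, than at 15dph, where 51.1% were gained. That difference by itself moves linked peaks down in percentile. The 2 counts therefore do not show that more peaks weakened than strengthened. Across pairs, the log2 ratio of widths and the change in rank percentile had a Pearson r of 0.391 and a Spearman rho of 0.419, and both are measures of the same 2 lists.

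**Figure D5:**
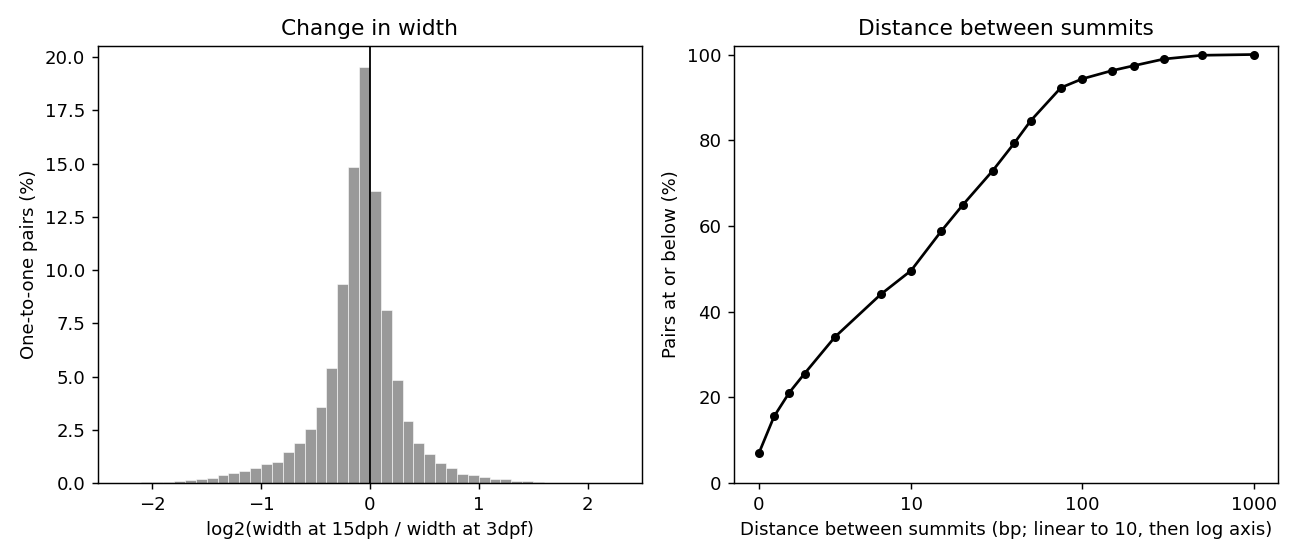
Left, histogram of the log2 ratio of peak width at 15dph to 3dpf for the 43354 one-to-one pairs (% of pairs in bins of 0.1, with values beyond the axis in the end bins). Right, cumulative share of pairs (%) against the distance between their summits in bp, on an axis that is linear to 10 bp and logarithmic above. The histogram leans below 0, with 62.7% of pairs narrower at 15dph, and 84.6% of summits lie within 50 bp.

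Summits of linked peaks lay close together in the embryo and the larva. The median distance between the 3dpf and the 15dph summit was 11 bp (10 to 11), and 84.6% (84.2 to 84.9) of pairs had summits within 50 bp. The signed shift had a median of 0 bp. In 3032 pairs both summits fell on the same base. The 15dph summit lay inside the 3dpf peak in 99.5% of pairs, and summits were more than 100 bp apart in 2462 pairs, or 5.68% (5.46 to 5.90). Those were mainly broad peaks, with 18.4% of pairs in the broadest 20% by mean width against 0.0231% in the narrowest. The narrowest pairs, with median widths of 181 bp at 3dpf and 175 bp at 15dph, leave little room for such a distance. Distances also grew towards the weak end of the 15dph list, from a median of 8 bp in the strongest 20% of pairs to 19 bp in the weakest. Grouped by rank at 3dpf the medians showed no such trend, at 10 or 11 bp in each group. The share of pairs with summits over 100 bp apart did rise, from 2.86% in the strongest 20% at 3dpf to 7.57% in the weakest. Linking by overlap keeps summits near each other, so these distances describe linked peaks only.

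The 3 strongest embryonic peaks of the one-to-one pairs remained strong in the larva. The first, on chromosome 11 from 22780345 to 22780689, ranked 1 at 3dpf and 22 at 15dph, with summits 9 bp apart and widths of 345 and 291 bp. The second, on chromosome 6 from 2620780 to 2621491, ranked 2 and 31 and narrowed from 712 to 454 bp. The third, on chromosome 8 from 9618568 to 9618902, ranked 3 and 1 and widened from 335 to 480 bp.

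The extreme changes in width were found both with a moved and with a fixed summit. Among the 22218 pairs with both peaks in the top 50% of their list, the largest ratio was 3.60, on chromosome 19 from 9482350, where a 179 bp peak became 644 bp and the summit moved by 386 bp. The next, on chromosome 14 from 21169007 (285 to 953 bp) and on chromosome 13 from 16696429 (178 to 581 bp), had summits that moved by 0 and 1 bp. Both widened almost wholly on 1 side. On chromosome 14 the start moved from 21169007 to 21168309, and on chromosome 13 the end moved from 16696606 to 16697004. The smallest ratio was 0.219, on chromosome 18 from 4255147, where 944 bp became 207 bp and the summit moved by 33 bp, while the rank fell from 2699 to 20757. On chromosome 16 from 20204500 (1107 to 247 bp) and on chromosome 4 from 612782 (1138 to 263 bp) the summit moved by 717 and 728 bp.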

How the data were processed

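ATAC-seq was measured at 3dpf, 15dph, 23dph and 37dph, with 2 replicates each (8 samples). The authors aligned reads with Bowtie2 to ASM1334776v1, corrected read positions for the Tn5 cut, used short nucleosome-free fragments, ran MACS2 for peaks and joined the replicates of a stage by the Irreproducible Discovery Rate (IDR), an estimate of how often peaks that strong would fail in a repeat. The deposited lists give start, end and summit in bp, and the authors' fold enrichment (a ratio to local background), −log10 p, −log10 q, a score capped at 1000 that is derived from the IDR, and −log10 IDR. Every list reached a global IDR of 0.1. Read depth, which bears on how many peaks are called and how wide, is not in the lists. The study's totals of raw and mapped reads, not used here, were lower for the 3dpf than for the 15dph libraries. These totals do not give the number of short nucleosome-free fragments, so the depth behind each list is not known. Whether strengths come from pooled reads is not given in the sources used here. Labels attach each list to its stage. The day in the name of the list used for 23dph differs from the stage label, and the label was followed.

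Peaks were linked in Python 3.11.15 with numpy 2.4.6, pandas 2.3.3 and scipy 1.17.1, and drawn with matplotlib 3.10.9. Links were tested on simulated lists. No list held overlapping peaks. Shares carry Wilson intervals and medians order-statistic intervals, both at 95%. Starts are 1-based. Named regions were the 5 strongest lost and gained peaks, the 3 strongest one-to-one pairs, the 3 longest runs, and the 3 largest and 3 smallest width ratios among pairs in the top 50% of both lists. Members, lists and measures were chosen with earlier results of these data known. The planned description against genes was not made, because the gene table was of another build. Alternatives were lists of equal length, a global IDR of at most 0.01, an overlap of 50% of both peaks, summits within 100 bp and numbered chromosomes alone. Widths within rank deciles were added after seeing the data.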

Additional observations from a re-analysis of the deposited data

How the results depend on the processing

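The lists hold no read depth, and its part in the number, width and strength of the peaks was not tested. No paired analysis was possible because there is 1 consensus list for both replicates of a stage, which also prevents leaving out a replicate. Numbered chromosomes alone gave values inside the interval of each result. The ranges of lost and gained shares over chromosomes also stayed within their intervals in the other 4 settings. The cause of the changes below was not tested unless stated.

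Lists of the same length gave 36.7% lost and 35.6% gained, by construction, since cutting the 3dpf list leaves fewer peaks to lose and to match. A global IDR of at most 0.01 gave 50.3% and 16.9%, an overlap of 50% of both peaks 55.2% and 26.3%, and summits within 100 bp 55.0% and 26.0%. The last 2 settings break links and therefore can hardly lower either share. The width of lost relative to kept 3dpf peaks reversed from 0.964 to 1.07 with equal lists, 1.09 at the stricter IDR and 1.02 by summits, and was 1.00 with 50% overlap. For gained peaks it reversed from 0.912 to 1.02 by summits, and was 0.817 with equal lists and 0.837 at the stricter IDR. Lost peaks were wider than kept ones in 10 of 10 deciles under every alternative run. For gained peaks the number went from 7 to 2 with equal lists and was 6 to 10 otherwise.

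The spacing of lost relative to kept peaks was 1.29 with 50% overlap and 1.32 by summits. That of gained peaks was 1.38 at the stricter IDR, 1.23 with 50% overlap and 1.35 by summits. The clustering of lost peaks was 20.7 points at the stricter IDR, 15.2 with 50% overlap and 15.5 by summits, and that of gained peaks 6.18 at the stricter IDR and 6.22 by summits. The width ratio of one-to-one pairs was 0.941 with equal lists and 0.957 with 50% overlap, and the summit distance was 9 bp at the stricter IDR.

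In the order equal lists, stricter IDR, 50% overlap and summits, the share of lost peaks overlapping a 23dph peak was 8.75%, 15.4%, 10.95% and 10.4%, and a 37dph peak 5.44%, 10.3%, 8.91% and 8.23%. For gained peaks it was 45.3%, 66.7%, 42.5% and 41.4% at 23dph, and 44.0%, 62.8%, 39.2% and 37.6% at 37dph. The stricter limit was applied to 3dpf and 15dph only, so weaker peaks of either list no longer counted as links.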
